A study of Mus musculus with 6 samples.

Results

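This account covers 36 genes of ciliary transport and of the cilium's entry zone, Gas8 counted among them, in sorted satellite cells, which are the resident stem cells of muscle fibres. The members were taken by gene name: all Ift, Bbs, Tctn and Dync2 genes on the array, Tmem216, Kif3a, Kif3b, Arl13b, Arl6, Ttc8, Cep290, Rpgrip1l, Ofd1, Mks1 and Gas8. They are represented by 48 of the array's 55681 probes, and 24 of them were bright enough to be tested among 17953 features. Gas8 is no transport gene, and it stands in the set because its knockout-control difference was already known, so that difference is given as a description and was not tested. The other names follow function, but the set as a whole was also drawn up with earlier results of these samples known.

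The cells came from 3 C57BL6 mice that lack Rpt3 in satellite cells, and from 3 control mice of the same strain. Rpt3 is the protein of Psmc4, an ATPase in the base of the proteasome's 19S regulatory particle. RNA was amplified transcriptome-wide, labelled with Cy3 and hybridized to Agilent expression arrays, 1 array for each mouse. The labels do not give the Cre driver, the deleted part of the gene, the genotype of the controls, the age, the sorting markers or any pairing of mice.

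The primary cilium is a single, non-motile antenna that grows from the mother centriole of most resting cells and is taken down when they enter the cell cycle. Intraflagellar transport (IFT) trains carry its building blocks, with kinesin-2 as the outward motor and dynein-2 as the return motor, and the BBSome moves membrane proteins out of it. The transition zone at its base controls what enters, and Hedgehog signalling in vertebrates runs through the organelle. Quiescent satellite cells are known to bear a primary cilium. Gas8 encodes a subunit of the nexin-dynein regulatory complex, which links the doublet microtubules of motile cilia.

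The arrays measured each gene through probes of 60 bases. The probes shown are those of the 6 members whose knockout and control values did not overlap, since the descriptions of those members rest on them. They are written 5′ to 3′ as the scanner files give them, and their positions are on mouse build mm9.
Gas8: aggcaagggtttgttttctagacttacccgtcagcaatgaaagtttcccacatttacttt
Tctn2: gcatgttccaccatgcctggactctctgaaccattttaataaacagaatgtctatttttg
Arl6: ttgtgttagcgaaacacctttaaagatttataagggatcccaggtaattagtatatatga
Ift122: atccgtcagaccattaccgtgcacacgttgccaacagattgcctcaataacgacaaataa
Ift46: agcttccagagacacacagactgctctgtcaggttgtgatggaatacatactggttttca
Dync2h1: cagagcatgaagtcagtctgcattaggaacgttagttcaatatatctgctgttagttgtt
The Gas8 probe lies at chr8:126060490-126060549 on the plus strand, and the Tctn2 probe at chr5:125077404-125077463 on the plus strand. The Arl6 probe lies at chr16:59613190-59613249 on the minus strand, and the Dync2h1 probe at chr9:6929350-6929409 on the minus strand. The Ift122 probe at chr6:115876636-115876695 and the Ift46 probe at chr9:44598913-44598972 are both on the plus strand. No annotation of this build was used here, so exon and UTR positions are not stated.

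A value is the log2 of a probe's background-corrected signal minus the log2 of that array's 75th percentile, so that 0 marks the 75th percentile. A probe was tested where 1 or both groups had it well above background, as the scanner software calls it, on each of their 3 arrays, and a gene with several probes is represented by its brightest one. Psmc4 itself was measured at 2.05, 2.07 and 1.54 in knockout cells, against 2.93, 2.61 and 2.87 in control cells. The groups did not overlap, and knockout cells had 52.9% of the control level (limma, adjusted p = 0.428). Probes well above background made up 57.9%, 51.7% and 44.2% of each knockout array and 53.0% to 53.6% of the control arrays. The first principal component set knockout 3 apart, at 70.4, while all others lay between -24.1 and -4.70. On the single slide, row 2 held knockout 3 and the controls, and row 1 held the remaining knockout arrays, 1 and 2.

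In knockout cells, the cilium genes had mostly slightly lower means than in control cells, and Gas8 stood far to the other side. Of the 24 tested members, 7 had a higher and 17 a lower mean in knockout cells, with a median log2 difference of -0.24. Over all 17953 features, 55.2% had a mean difference above 0 and 44.8% below 0, with a median of 0.04. The share of tested members below 0 was 70.8%. Without Gas8 the count was 6 higher and 17 lower, and the median was again -0.24. Of the 24, 4 were tested through the control group alone and 0 through the knockout group alone, which favours lower means in knockout cells. Of the 20 members well above background on all 6 arrays, Gas8 included, 6 were higher and 14 lower, with a median of -0.24. Under that filter the median of all features was 0.05. In these sorted cells, fewer cells that express a gene and less RNA of it in each cell cannot be told apart.

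By limma, 0 of the tested members other than Gas8 passed an adjusted p of 0.05, where the background over all features was 0%. Their adjusted p-values ran between 0.656 and 0.992. At an unadjusted p under 0.05, 1 of these 23 members was higher, Tctn2, beside 2.82% of all features, and 1 was lower, Ift46, beside 4.38% of all features. The standard errors of the members' log2 differences had a median of 0.31 and a range of 0.22 to 0.51. For 21 of the 23 members the 95% interval spanned 0, so the direction of their differences was not resolved with 3 arrays in each group. An exact permutation test of 3 against 3 cannot go below p = 0.1.

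The groups did not overlap for 6 of the 24 tested members, 25% of them, where 10.9% of all features showed this. Gas8 and Tctn2 were higher in every knockout sample, 8.33% of the tested members beside 5.06% of all features. Arl6, Ift122, Ift46 and Dync2h1 were lower in every knockout sample, 16.7% of the tested members beside 5.84% of all features. Gas8 entered the set for this very property, so its place in the count is fixed by that choice and raises the 25% and the 8.33%. Of the other 23 tested members only Tctn2 was higher in every knockout sample, so no excess over the 5.06% of all features is read from the higher side. Without knockout 3, which stood apart, the groups did not overlap for 5 higher, Gas8 again among them, and 7 lower of 26 tested members. Over all features the shares were then 15.9% higher and 10.7% lower.

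**Figure D1:**
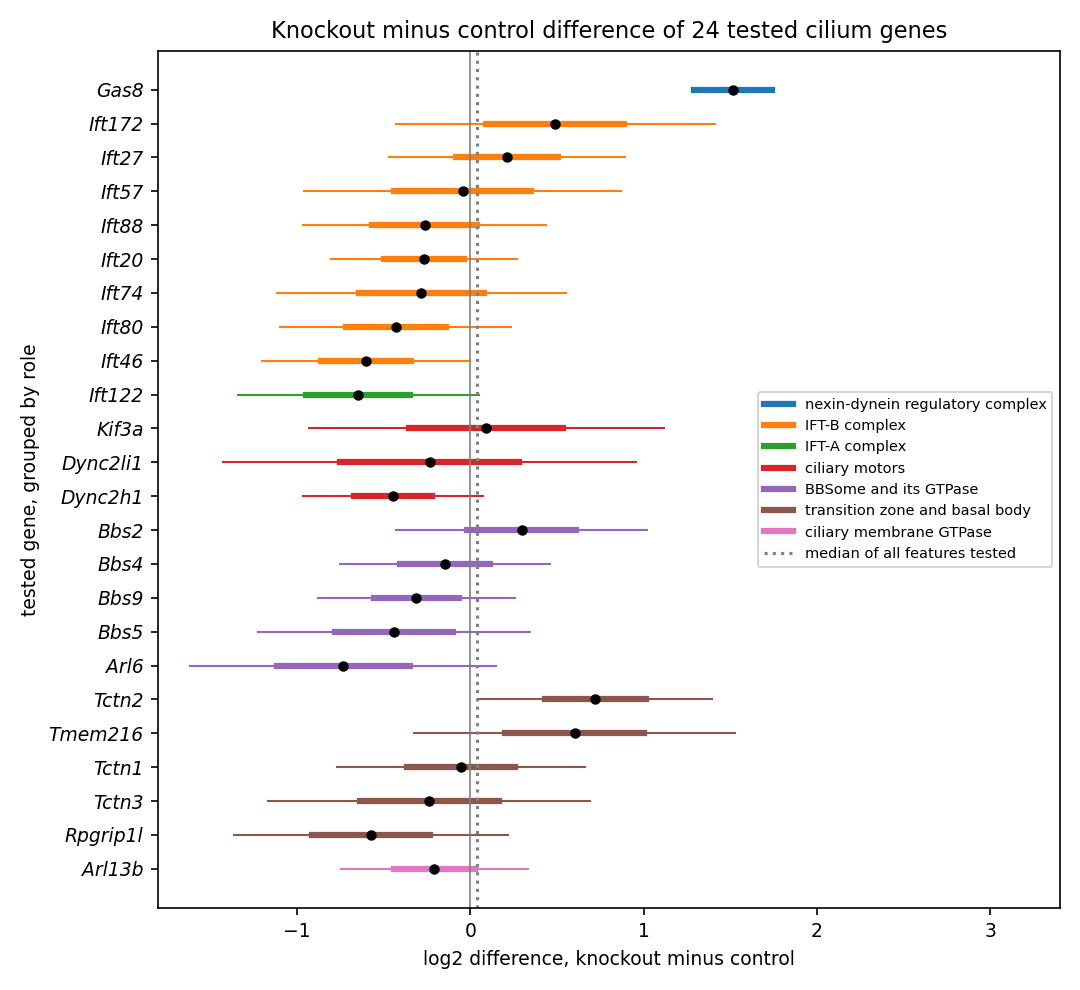
Log2 difference, knockout minus control, of each of the 24 tested genes, grouped and coloured by role. Points are the differences, thick bars the standard error, thin bars the 95% interval (none is drawn for Gas8), and the dotted line the median of all features at 0.04. Apart from Gas8 at 1.52, only the interval of Tctn2 lies above 0, and that of Ift46 ends at the edge of 0.

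The plot of differences by role shows how small most of the members' shifts were beside their errors. Apart from Gas8, differences lay between -0.73 and 0.72.

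Among the 24 tested members Gas8 had the largest difference, and its signal was low on every array. It was measured at -0.27, -0.24 and -0.45 in knockout cells, against -2.11, -1.61 and -1.79 in control cells. The lowest knockout value lay well above the highest control value. The means were -0.32 ± 0.12 in knockout cells and -1.84 ± 0.26 in control cells (SD, n = 3 each), a log2 difference of 1.52 (SE 0.23), or 2.86-fold.

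The background-corrected Gas8 signal was 88.9, 66.6 and 46.0 intensity units on the knockout arrays and 20.2, 28.5 and 23.1 on the control arrays. Before correction the spot was 2.79, 2.45 and 2.19 times as bright as its local background on the knockout arrays, and 1.69, 1.81 and 1.77 times on the control arrays. The probe was called well above background on all 6 arrays, but the corrected control signals were small beside the background that had been removed. The authors' deposited table gives Gas8 69.9, 71.0 and 60.4 in knockout samples and 19.2, 27.6 and 23.8 in control samples, again without overlap. With normexp, which adds an offset of 50 to the corrected signal and so draws dim values together, the log2 difference was 0.62.

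The array has 1 probe for Gas8, so no second probe could be set beside it. In RefSeq's assembly GRCm38.p6, the neighbouring genes Dbndd1 and n-R5s100 do not overlap Gas8. Within slide row 2, where only knockout 3 stands against the 3 controls, the Gas8 difference was 1.38. Without knockout 3 it was 1.58.

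The summed linear level of the erythroid markers, relative to each array's 75th percentile, was 6.20 to 12.1 in knockout cells and 2.10 to 4.80 in control cells, so the groups were apart here too. That separation rested on Hba-a1, an alpha-globin gene, since the sum without it was 1.99 to 3.51 in knockout cells and 1.09 to 2.91 in control cells. Of the 7 erythroid genes on the array 3 were tested. Hba-a1 differed by 1.88 (limma adjusted p = 0.358) without overlap, and Slc4a1, the anion exchanger of red cells, by -0.0046 with overlapping groups. Hbb-bt, a beta-globin gene, passed through the knockout group alone and was well above background in 1 of 3 controls. It was measured at 0.05, -1.19 and -1.08 in knockout cells, against -1.21, -4.64 and -4.57 in control cells. Control 1 was thus nearly level with knockout 2. The part of erythroid cells in the Gas8 difference was not tested.

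**Figure D2:**
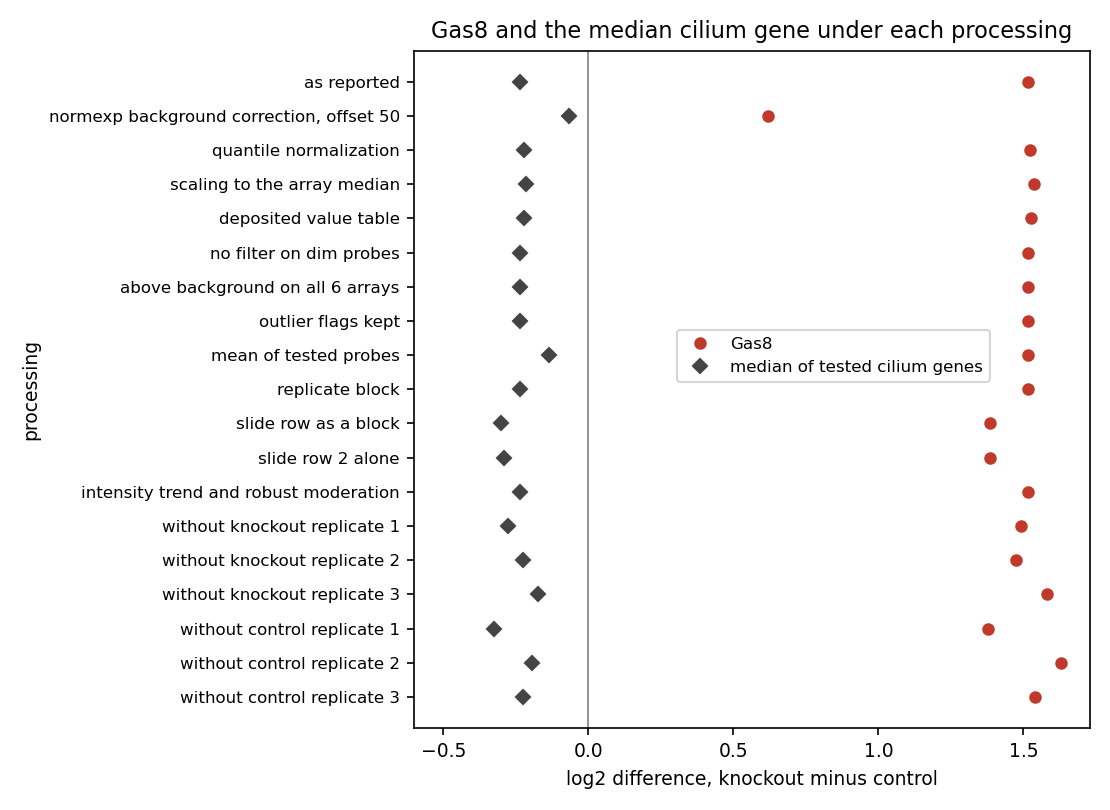
Log2 difference, knockout minus control, of Gas8 (circles) and the median over the tested cilium genes (diamonds), one line for each way of processing the same arrays. Gas8 lies between 1.38 and 1.63 except with normexp, where it is 0.62, and the median of the tested cilium genes stays below 0, between -0.33 and -0.07.

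The plot of processing settings shows that Gas8 and the median of the tested genes lay on opposite sides of 0 under each of the 18 alternatives. Among these, the replicate block and the intensity trend leave mean differences unchanged by construction. The median came closest to 0 with normexp, at -0.07.

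The IFT-B complex drives the outward trains, and 8 of its 10 members on the array were tested. Of these, 2 had higher and 6 had lower means in knockout cells, with a median of -0.26. Ift46, a core subunit, had -1.47, -1.35 and -1.40 in knockout cells, against -1.27, -0.66 and -0.48 in control cells. Each knockout value lay below each control value, by little in the case of control 1. The log2 difference was -0.60 (SE 0.26, limma adjusted p = 0.693).

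Ift172, a peripheral subunit at which trains turn around at the tip, pointed the other way on average, with a log2 difference of 0.49 (SE 0.40, limma adjusted p = 0.946). Its values were -0.82, -0.97 and -2.10 in knockout cells, against -1.30, -2.24 and -1.83 in control cells. Knockout 1 and knockout 2 were above all controls, and knockout 3 lay among them. The difference was -0.31 within slide row 2, so its direction rested on the arrays of slide row 1. Without knockout 3 it was 0.89, and without knockout 1, knockout 2 or control 2 it was 0.25, 0.33 or 0.27.

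Among the other IFT-B genes, Ift27, a small GTPase-like subunit, differed by 0.21. Ift80 differed by -0.43, Ift74, part of the tubulin-binding module, by -0.28, and Ift20, which also works at the Golgi, by -0.27. Ift88, whose loss abolishes cilia in mice, differed by -0.26, and Ift57 by -0.04. None of them passed the test, and all had overlapping groups.

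The IFT-A complex drives the return trains and was measured through Ift122. Its values were 0.57, 0.51 and -0.28 in knockout cells, against 0.69, 1.24 and 0.81 in control cells. The groups did not overlap, and knockout 3 was the lowest of the 6 samples. The log2 difference was -0.65 (SE 0.30, limma adjusted p = 0.754). It was -0.37 without knockout 3 and -1.19 within slide row 2.

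Of the motors, Dync2h1, the heavy chain of dynein-2, had -0.86, -0.91 and -1.13 in knockout cells, against -0.77, -0.47 and -0.32 in control cells. All 3 knockout samples were below all 3 controls. The log2 difference was -0.45 (SE 0.22, limma adjusted p = 0.796). The light intermediate chain Dync2li1 differed by -0.23 with overlapping groups. Kif3a, a motor subunit of kinesin-2, had 2.08, 0.53 and 1.62 in knockout cells, against 1.83, 0.74 and 1.39 in control cells. Samples 1 and 3 of both groups were high and sample 2 of both was low, and the log2 difference was 0.09 (SE 0.44, limma adjusted p = 0.987). The sign of the Kif3a difference turned when the mean of its probes was used (-0.05) and without knockout 1 (-0.24), knockout 3 (-0.01) or control 2 (-0.20).

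The BBSome and Arl6, the small GTPase that brings it to membranes, had 5 tested members of 8, of which 1 was higher and 4 were lower on average, with a median of -0.31. Arl6 had -0.24, -0.12 and -1.53 in knockout cells, against 0.01, 0.29 and 0.01 in control cells. Knockout 3 lay far below the rest, and knockout 1 and knockout 2 were just under the lowest control. The log2 difference was -0.73 (SE 0.38, limma adjusted p = 0.815). It was -0.28 without knockout 3 and -1.63 within slide row 2, where knockout 3 stands alone.

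Bbs2, a core subunit, had -0.29, -0.08 and 0.22 in knockout cells, against -0.46, 0.24 and -0.82 in control cells. The groups overlapped, and the log2 difference was 0.30 (SE 0.31, limma adjusted p = 0.981). It was 0.059 without control 3, 0.59 without control 2, 0.16 without knockout 3 and 0.57 within slide row 2. Bbs5 differed by -0.44, Bbs9 by -0.31 and Bbs4 by -0.14, each with overlapping groups. The chaperonin-like genes Bbs10 and Bbs12, which help to assemble the BBSome, were not tested.

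Of the transition zone and basal body genes, 5 of 8 were tested, with 2 higher and 3 lower means and a median of -0.05. Tctn2, a tectonic of the transition zone complex, had -1.31, -1.59 and -0.62 in knockout cells, against -1.89, -1.74 and -2.05 in control cells. Every knockout sample was above every control, and knockout 3 was the highest. The log2 difference was 0.72 (SE 0.29, limma adjusted p = 0.656). It was 0.44 without knockout 3 and 1.28 within slide row 2.

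Rpgrip1l, a scaffold at the base of the cilium, had -0.59, -0.97 and -0.42 in knockout cells, against -0.61, -0.25 and 0.60 in control cells. The groups overlapped, control 3 was the highest, and the log2 difference was -0.57 (SE 0.34, limma adjusted p = 0.867). Without control 3 it was -0.23, and within slide row 2 it was -0.34. The membrane protein Tmem216 had 1.33, 1.86 and 0.22 in knockout cells, against 0.37, 0.67 and 0.56 in control cells. Knockout 1 and knockout 2 were above all controls and knockout 3 was below them, with a log2 difference of 0.60 (SE 0.40, limma adjusted p = 0.904). The other tectonics, Tctn1 and Tctn3, differed by -0.05 and -0.24.

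Arl13b, a small GTPase of the ciliary membrane that is commonly used to stain cilia, had 0.32, 0.09 and -0.28 in knockout cells, against 0.31, 0.27 and 0.17 in control cells. Knockout 1 was at the level of the controls, and knockout 3 was the lowest. The log2 difference was -0.21 (SE 0.23, limma adjusted p = 0.982). It was -0.047 without knockout 3, -0.35 without knockout 1 and -0.53 within slide row 2.

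**Figure D3:**
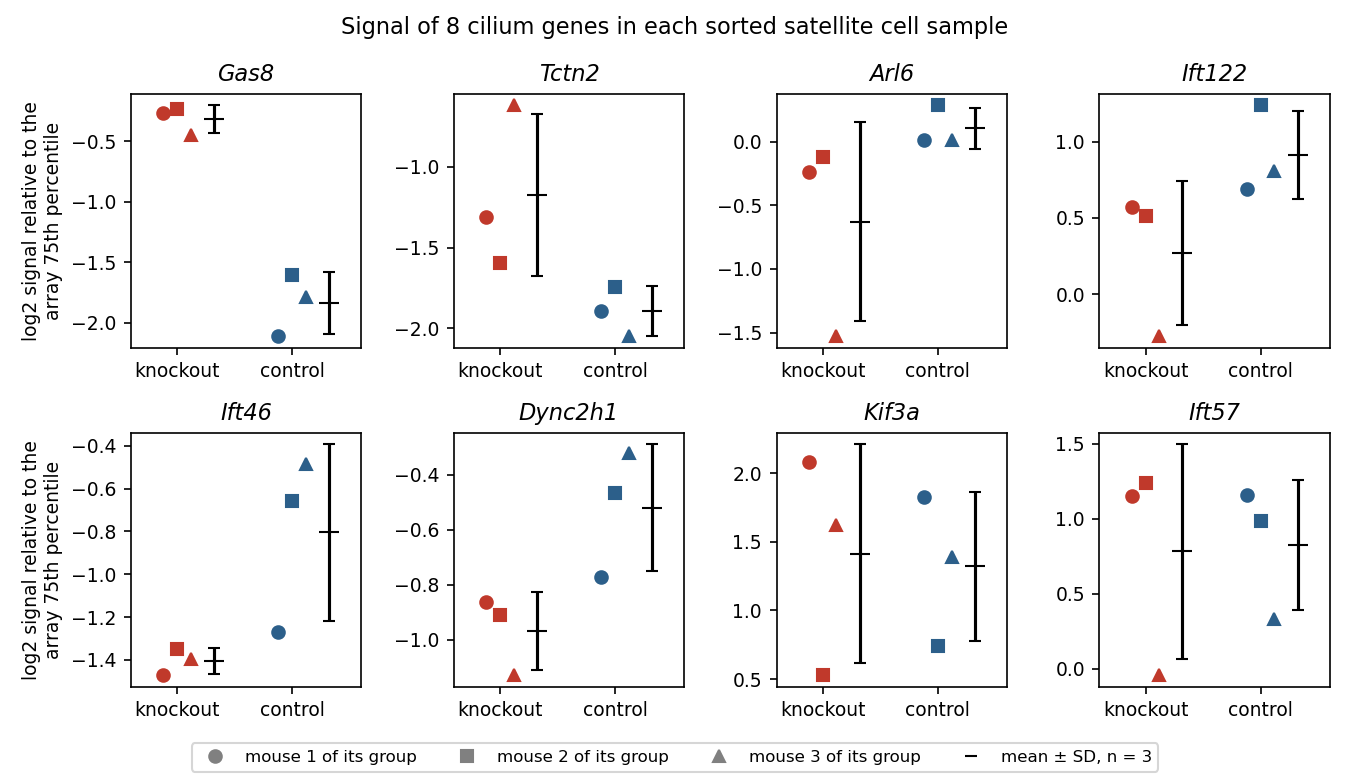
Signal of 8 cilium genes in each sample, as log2 relative to the array's 75th percentile, with a separate vertical scale for each gene. Red symbols are the 3 knockout samples, blue symbols the 3 control samples, symbol shapes give the mouse number within its group, and black bars are the mean ± SD. The groups are apart for the 6 genes Gas8, Tctn2, Arl6, Ift122, Ift46 and Dync2h1 and overlap for Kif3a and Ift57.

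The plot of values by sample shows a tight knockout group for Gas8 and Ift46, and a knockout group stretched by knockout 3 for Arl6, Ift122 and Tctn2.

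The members that were not tested numbered 12: Bbs1, Bbs7, Bbs10, Bbs12, Cep290, Ift52, Ift81, Ift140, Kif3b, Mks1, Ofd1 and Ttc8. The probes of Ift52, Ift81 and Kif3b were well above background on no array. These include a kinesin-2 subunit and IFT-B core subunits, whose partners Kif3a and Ift74 were above background on all arrays. A dim probe does not show that a transcript is rare or absent, since the probes of different genes differ in brightness. Of the 24 tested members, 20 were well above background in all samples of both groups. The other 4, Ift172, Ift88, Dync2li1 and Tctn3, passed through the control group alone.

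The members did not move as a block from sample to sample. Knockout 3 was the lowest of the 6 samples for 8 of the 24 tested members, 33.3%, where it was the lowest for 26.7% of all features. Knockout 2 was the lowest for 6 of them, 25%, beside 11.0% of all features. Of the members' 48 probes, the 3 knockout arrays detected 38, 36 and 26 well above background, against 34, 37 and 37 on the 3 control arrays, in the order of their numbers. Knockout 3 was thus the array with the fewest detected cilium probes, as it was over all probes. Without knockout 3, 9 of 26 members were higher and 17 lower, with a median of -0.17, and without knockout 2, 9 of 24 were higher and 15 lower. The part of single arrays in the lower means was not tested further.

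**Figure D4:**
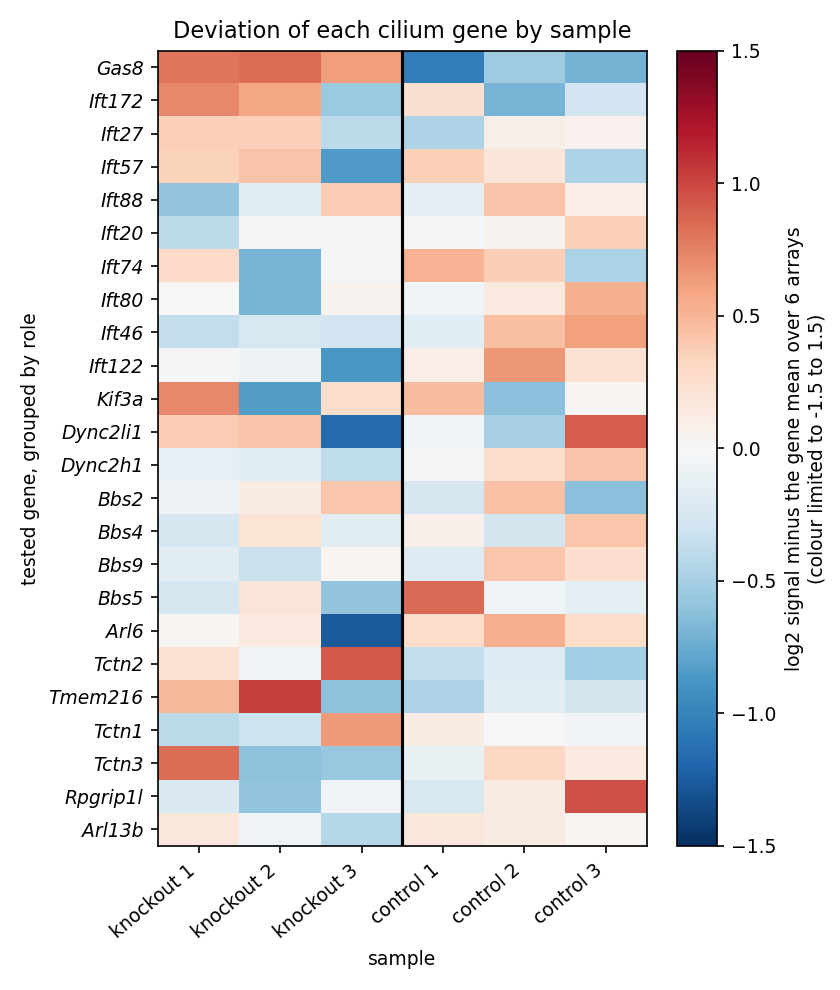
Deviation of each of the 24 tested genes (rows, grouped by role) from its own mean over the 6 samples (columns, knockout samples left of the line and control samples right of it), on the log2 scale. Gas8 is raised in all 3 knockout samples, and Arl6, Ift122, Ift57 and Dync2li1 are at their lowest in knockout 3.

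The heat map shows that knockout 3 also held high values, as for Tctn1 at 0.59 and Tctn2 at -0.62, so it was not low for every member.

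Second probes gave a mixed check. Of the 36 members, 12 had 2 probes, and 8 tested members had a second probe above background on at least 4 arrays. In 4 of these 8 the second probe had the same sign as the brightest. The second probe differed by -0.90 for Arl6, -0.28 for Ift46, -0.06 for Ift122 and -0.05 for Arl13b. For Bbs5 (0.33), Ift74 (0.31), Kif3a (-0.20) and Tmem216 (-0.47) the second probe pointed the other way.

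Promoters of ciliary genes are known to carry X-box motifs, which are bound by RFX transcription factors. In RefSeq's promoter windows for GRCm38.p6, 250 bases before to 50 bases after each gene's start, 32 of the 36 members had an entry, in 34 windows. Ift122, Ift80, Ift81 and Dync2li1 had none. The 6-base RFX core motif GTTGCC was searched on both strands, and 16 of the 34 windows, 47.1%, held it, beside 12.5% of all 32851 promoter windows. The members' windows were richer in G and C, with a median of 59.8% beside 52.7%. Among windows between the members' GC quartiles, 14% held the motif.

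The full X-box, a 14-base palindromic motif that can overlap the core motif, was searched on both strands and found in 3 of the 34 windows, those of Bbs7, Mks1 and Tctn1. That was 8.82%, beside 0.673% of all windows. A match describes the letters in a window and is not a measured binding site.

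The windows of Gas8, Tctn2 and Dync2h1 are printed because they hold the motif and belong to members whose groups did not overlap, on either side of 0. Capitals mark the motif or its reverse complement, and each window runs 5′ to 3′ on the gene's strand.
Gas8: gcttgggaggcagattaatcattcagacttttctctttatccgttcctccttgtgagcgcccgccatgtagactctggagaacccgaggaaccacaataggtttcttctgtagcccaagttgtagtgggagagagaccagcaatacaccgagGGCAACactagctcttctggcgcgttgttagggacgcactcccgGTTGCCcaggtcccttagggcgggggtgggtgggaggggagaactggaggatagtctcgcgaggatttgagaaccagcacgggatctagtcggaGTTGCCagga
Tctn2: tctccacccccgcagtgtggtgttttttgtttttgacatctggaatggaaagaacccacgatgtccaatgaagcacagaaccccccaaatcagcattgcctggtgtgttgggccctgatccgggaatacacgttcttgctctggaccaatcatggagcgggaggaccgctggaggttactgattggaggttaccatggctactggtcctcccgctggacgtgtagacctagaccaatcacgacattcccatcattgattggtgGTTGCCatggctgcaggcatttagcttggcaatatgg
Dync2h1: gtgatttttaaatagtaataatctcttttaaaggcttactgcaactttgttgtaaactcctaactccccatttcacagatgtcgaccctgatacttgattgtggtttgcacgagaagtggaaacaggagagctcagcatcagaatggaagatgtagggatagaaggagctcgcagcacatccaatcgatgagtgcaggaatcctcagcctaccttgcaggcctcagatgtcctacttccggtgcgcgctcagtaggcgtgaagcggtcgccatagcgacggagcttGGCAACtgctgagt
The Gas8 window is chr8:123518585-123518884 on the plus strand of GRCm38.p6, the Tctn2 window chr5:124598499-124598798 on the plus strand, and the Dync2h1 window chr9:7177009-7177308 on the minus strand. Gas8 held 3 matches, which start at -98 on the antisense strand and at -54 and 40 on the sense strand relative to the gene's start. The match in Tctn2 starts at 13, and that in Dync2h1 at 36 on the antisense strand.

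**Figure D5:**
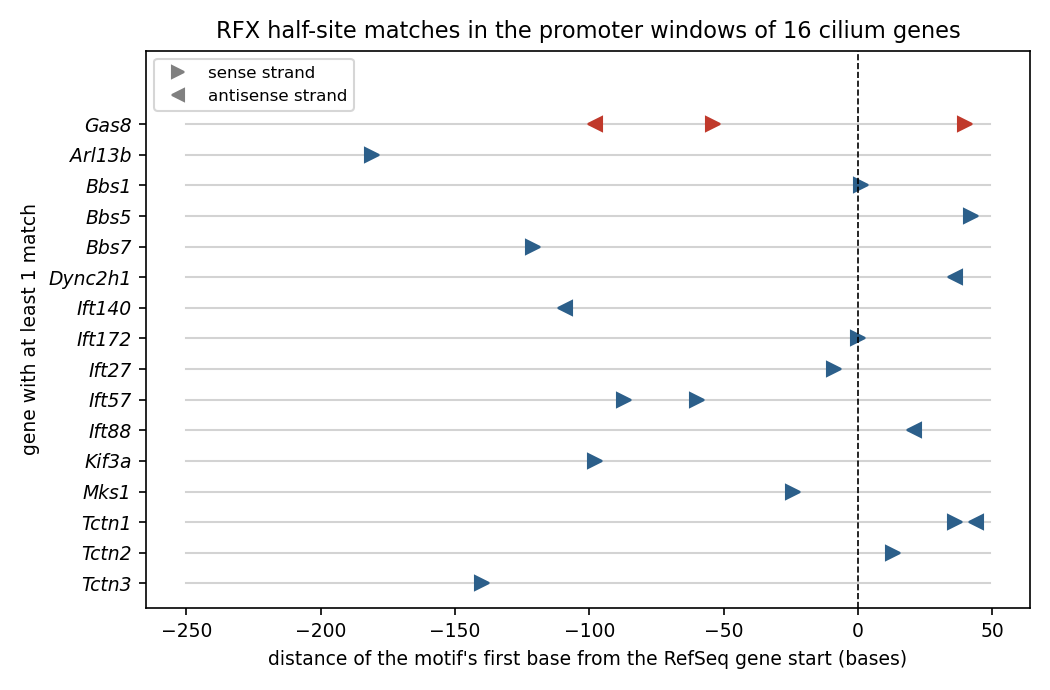
Positions of the 6-base RFX core motif in the promoter windows of the 16 cilium genes that hold it, as the distance in bases from the RefSeq gene start (dashed line). Triangles pointing right are matches on the gene's strand and triangles pointing left on the other strand. Gas8 (red) has 3 matches, Ift57 and Tctn1 have 2 each, and the rest have 1.

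The map of motif matches shows that Gas8 held the most matches of these 16 genes, and that matches lay on both sides of the gene start. The 12 tested members with the motif had 5 higher and 7 lower means and a median of -0.05, and the 9 with a window that lacks it had 2 higher and 7 lower means and a median of -0.28. Of the RFX factors on the array, 2 were tested: Rfx1 differed by -0.44 (SE 0.31, limma adjusted p = 0.919) and Rfx7 by 0.06 (SE 0.48, limma adjusted p = 0.99).

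Other genes of the cilium were read from lists, in each of which 0 genes passed an adjusted p of 0.05. Of 11 tested IFT, BBSome and motor genes under other names, 4 were higher and 7 lower, with a median of -0.19. Traf3ip1, the IFT-B subunit IFT54, differed by -0.66 (limma adjusted p = 0.669) and Cluap1, the subunit IFT38, by -0.67 (limma adjusted p = 0.855). Of 22 other transition zone and basal body genes, 4 were higher and 18 lower, with a median of -0.30. Several of them, Nphp4 and Nek8 included, passed through the control group alone, and such a filter favours lower means in knockout cells.

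In that list Nphp4, of the nephronophthisis module, was well above background in all controls but in no knockout sample. Its measured means were -3.35 in knockout and -2.17 in control cells (limma adjusted p = 0.494). Since its knockout signals were not called above background, no fold difference is given. Nek8, a kinase of the proximal cilium, had -1.23, -1.96 and -2.02 in knockout cells, against -0.94, -1.23 and -0.83 in control cells. The highest knockout value and the lowest control value were nearly equal, with a log2 difference of -0.74 (limma adjusted p = 0.61).

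Of 15 tested Hedgehog pathway genes, 6 were higher and 9 lower, with a median of -0.19. The ligand Dhh had -0.34, -0.50 and -0.60 in knockout cells, against -1.01, -1.03 and -1.30 in control cells, without overlap (log2 difference 0.63, limma adjusted p = 0.553). The ligand Ihh differed by -1.07 (limma adjusted p = 0.688) with overlapping groups. It passed through the control group alone and was well above background in 2 of 3 knockout samples. Shh was well above background on no array. Gli1, a transcriptional target of the pathway, differed by -0.37, and the signal transducer Smo by 0.12.

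The 8 tested genes of cilium disassembly and capping had 3 higher and 5 lower means and a median of -0.06. Aurka, the mitotic kinase that also starts cilium disassembly, had -2.63, -4.83 and -1.63 in knockout cells, against -1.99, -0.43 and -1.95 in control cells. The groups overlapped, knockout 2 lay far below the rest, and the probe was well above background in 2 of 3 knockout samples. The log2 difference of Aurka was -1.57 (SE 0.79, limma adjusted p = 0.796), and that of its scaffold Nedd9 -0.35 (SE 0.28, limma adjusted p = 0.946).

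Gas8's partners in the nexin-dynein regulatory complex had smaller differences. Of the 5 tested, 2 were higher and 3 lower, with a median of -0.06. Tcte1 differed by -0.26 and Lrrc48 by 0.15, and Drc1 and Drc7 were well above background on no array.

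Of 20 genes of the motile axoneme and of multiciliated cells, 8 were tested, with 7 higher and 1 lower means and a median of 0.22, where 55.2% of all features were higher. Knockout 3 was the highest sample for Mcidas, Rsph4a, Tekt4 and Tekt2, and not for Rsph9, Ccdc39, Ccdc40 and Dnaic1. It was the highest for 27.1% of all features. Mcidas in knockout 1 lay below all controls, and Ccdc40 passed through the control group alone. Tekt2, a tektin of the doublet microtubules, had 1.02, 1.19 and 1.34 in knockout cells, against 0.72, 0.50 and 0.92 in control cells, without overlap (log2 difference 0.47, limma adjusted p = 0.77). The radial spoke gene Rsph9 differed by 0.61 with overlapping groups (limma adjusted p = 0.77). Foxj1, the master regulator of motile cilia, and Dnah9, Dnah11, Dnaic2, Spag6, Spag6l and Spef2 were well above background on no array. The summed linear level of the list, relative to each array's 75th percentile, was 994 to 1805 in knockout cells and 1180 to 1211 in control cells. Nearly all of it was the signal of the Mcidas probe, and without it the sum was 24.7 to 32.7 in knockout cells and 22.6 to 25.2 in control cells.

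Markers of other cell types were summed in the same way. The fibro-adipogenic sum was 391 to 447 in knockout cells and 491 to 828 in control cells, and most of it was Col1a1. Without Col1a1 the groups overlapped, at 128 to 147 in knockout cells and 134 to 194 in control cells. The part of these cells in the cilium values was not tested. The macrophage sum was 28.7 to 29.8 in knockout cells and 25.2 to 33.5 in control cells. The endothelial sum was 27.1 to 70.9 in knockout cells and 26.8 to 91.8 in control cells. The neutrophil sum was 11.0, 17.4 and 1.30 in knockout 1, 2 and 3, and 1.59 to 3.73 in control cells. Knockout 1 and knockout 2, the arrays of slide row 1, were thus above all controls and knockout 3 below them.

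The satellite cell sum, led by Vcam1, was 39.5 to 67.3 in knockout cells and 52.2 to 60.6 in control cells. Of its 10 markers 9 were tested, 4 with higher and 5 with lower means and a median of -0.23, and each of the 10 was well above background on at least 1 array. Pax7, the defining transcription factor of satellite cells, differed by 0.17 and Cdh15 by 0.07, with overlapping groups. Calcr, a receptor of quiescent satellite cells, was lower in every knockout sample (log2 difference -1.04, limma adjusted p = 0.44). Myf5 was well above background in all controls but in no knockout sample, and it passed through the control group alone. Its measured means were -3.59 in knockout and -1.62 in control cells (limma adjusted p = 0.179). The knockout signals were too dim to be called, so no fold difference is given.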

How the data were processed

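RNA of satellite cells from 3 knockout and 3 control mice was measured on 1 array each. The scanner files hold linear intensity values, background-corrected and detrended. Per the file headers this was done in Agilent Feature Extraction 10.7.1.1, whereas the version in the submitters' processing notes is 9.5.1.1. The deposited table of values also holds linear intensity, with equal quantiles on all arrays.

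Each background-corrected intensity of the scanner files was turned into log2 and the array's 75th percentile subtracted. Control spots, outlier flags and 2744 probes without a gene name were left out, and no spot was saturated. Symbols were updated through transcript accessions for 2838 probes. The group difference was fitted in limma 3.58.1 with lmFit and eBayes (R 4.3.3, with version 1.17.8 of data.table), 2-sided, with Benjamini-Hochberg adjustment over 17953 features. The mice are separate, but litters and sorting days are not stated. Same-numbered samples deviated with correlations of 0.07, -0.02 and 0.09, so the numbers were not taken as pairs.

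The members and lists were chosen with earlier results of these data known. Named were Gas8, Psmc4, in each role the members with the largest difference each way and the smallest p, members not tested, and 2 genes of each other list. Tmem216, Gli1, Smo, Slc4a1, Pax7, Cdh15 and other members with values were named beyond the per-sample rule after their values were seen. In 10 simulations of 17953 features, 5.52% of genes changed 2-fold, 62.4% changed 4-fold and 83.5% changed 8-fold were recovered, and 5.18% of calls were false.

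Alternatives were normexp with an offset of 50, quantile and median scaling, the deposited values, other filters and flags, the mean of probes, blocks for replicate number and slide row, slide row 2 alone, an intensity trend, and each array left out. Array number limits the precision.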

Additional observations from a re-analysis of the deposited data

How the results depend on the processing

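Under 18 alternatives, 173 of 179 differences of single named genes kept their direction. No named gene other than Gas8, which was not tested, passed an adjusted p of 0.05. The 18 are not separate checks of direction. The replicate block and the intensity trend cannot change a mean difference, and the 2 other filters left those of the named genes they kept as reported. Slide row as a block repeats the differences of slide row 2 alone, since row 1 holds knockout arrays only. Kif3a reversed to -0.053 with the mean of its probes and to -0.24, -0.01 and -0.20 without knockout 1, knockout 3 or control 2, and its highest value was 0.53, without knockout 2. Ift172 reversed to -0.31 both within slide row 2 and when slide row was a block. With normexp the median of tested members was -0.068 and Gas8 differed by 0.62; the offset compresses dim probes by construction. Without a filter on dim probes, 12 of 36 members were higher, since 12 more entered. Features called over the whole array, 0 as reported, were 1 with quantile normalization, 1 with the deposited table, 2 with median scaling and 4 with an intensity trend, and no member was among them; the cause was not tested. Leaving out 1 array at a time gave 7 to 10 members higher, a median of -0.33 to -0.17, a Gas8 difference of 1.38 to 1.63 and 0 features called. With the replicate number as a block, 0 features were called. The numbers are balanced over the groups, so this block can change p-values but no mean difference. That 7 members were higher, with a median of -0.24 and a Gas8 difference of 1.52, was therefore fixed in advance. The 3 arrays in each group and signals near background limit what could be seen.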
